A study of Mus musculus with 5 samples.

Results

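The 6 genes described here are Serpina1a, Serpina1b, Serpina1c, Serpina1d, Serpina1e and Afp, taken by name from the 27998 genes of a single-cell expression matrix and the 22042 genes of a table of sorted-cell RNA-seq, both from mouse small intestine. They were chosen because earlier results from the same files showed them in enteroendocrine cells (EECs), the hormone-secreting cells of the gut lining. Their levels across endocrine cell types and between CCK+ and CCK- cells are therefore given as a description with no test, and only the effect of feeding was tested. The genes were picked by endocrine cell type, but whether feeding differences were also in view is not recorded, so those tests are not independent evidence. The single cells were epithelial cells positive for tdTomato from 4 pooled Neurog3-Cre; R26-LSL-tdTomato mice (C57Bl/6J, 6 weeks old), run as 1 droplet library. Neurog3 marks the progenitor of EECs, and because the reporter stays on, other epithelial cells descended from Neurog3-positive cells were also captured. The sorted cells came from Cck-Cre; R26-LSL-tdTomato mice aged 6 to 8 weeks, with each library made from 1 mouse. Libraries lettered A, B and F came from mice fasted overnight, and those lettered C, D and E from mice fasted and then given the liquid diet Ensure. Each letter has a tdTomato-positive (CCK+) and a tdTomato-negative (CCK-) epithelial library, giving 12 libraries in 4 groups of 3. No source used here states that both libraries of a letter came from the same animal. CCK+ here means any cell that had Cre activity from the Cck locus during its history, so the CCK+ libraries also hold cells that make serotonin or other hormones.

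The Serpina1 genes encode alpha-1-antitrypsin, a secreted inhibitor that traps serine proteases such as neutrophil elastase in a stable complex. The liver is its main source, and mice carry several closely related copies where humans have a single gene. Afp encodes alpha-fetoprotein, a carrier protein of the albumin family that the yolk sac and fetal liver secrete and that falls to low levels in liver after birth. EECs are divided by hormone: enterochromaffin cells make serotonin with the enzyme Tph1, and other EECs make cholecystokinin (Cck), GIP (Gip), ghrelin (Ghrl) or somatostatin (Sst).

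All 5 Serpina1 copies lie on the minus strand of 1 cluster at chr12:103728156-103956897 (mouse build GRCm38.p6), a span of 229 kb. From the lowest coordinate upward they are Serpina1b (chr12:103728156-103738189), Serpina1d (chr12:103763587-103773633), Serpina1a (chr12:103853295-103863619), Serpina1c (chr12:103894926-103904950) and Serpina1e (chr12:103946931-103956897). Afp stands alone on the plus strand at chr5:90490714-90508907. The transcripts of the 5 copies were 75.0% to 94.3% identical over the 10 pairs, with Serpina1c and Serpina1d the closest. Of all 100-base windows of the longest coding transcript, those found in no other copy made up 41.5% in Serpina1c, 52.6% in Serpina1a, 73.7% in Serpina1d, 80.8% in Serpina1b and 85.2% in Serpina1e. In the last 500 bases, where 3' droplet reads fall, the share was 90.3% to 100%. A read from a shared stretch can be dropped or given to the wrong copy, so values for single copies are less certain than their sum.

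The stretch just upstream of the annotated starts is shown because the 5 copies differ in where they were expressed while this sequence was nearly the same in all of them. Promoter sequence is from RefSeq on GRCm38.p6, which held all 6 genes. Over 185 bases that end with the run printed next, pairs of copies were 91.9% to 97.3% identical. The longest run shared by all 5 copies in the 250 bases before the start was 55 bases long and, for Serpina1a, lies at chr12:103863625-103863679 on the minus strand. It is printed 5′ to 3′ in lower case, since no base of it differs.
Shared run: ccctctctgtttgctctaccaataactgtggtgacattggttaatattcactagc
The 40 bases immediately upstream of that run hold 10 positions at which the copies differ, printed here in capitals.
Serpina1a: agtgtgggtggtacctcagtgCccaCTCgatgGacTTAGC
Serpina1b: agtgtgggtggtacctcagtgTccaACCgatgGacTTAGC
Serpina1c: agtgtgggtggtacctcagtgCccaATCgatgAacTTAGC
Serpina1d: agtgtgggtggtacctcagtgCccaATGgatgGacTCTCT
Serpina1e: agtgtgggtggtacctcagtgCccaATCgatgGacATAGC
These stretches lie at chr12:103863680-103863719 (Serpina1a), chr12:103738255-103738294 (Serpina1b), chr12:103905017-103905056 (Serpina1c), chr12:103773689-103773728 (Serpina1d) and chr12:103957015-103957054 (Serpina1e), all on the minus strand. Serpina1d carried a base of its own at 5 of the 10 positions, Serpina1b at 2, and the other copies at 1 each. Counted from the annotated start, the first base of the shared run was at -60 in Serpina1a, -65 in Serpina1b, -66 in Serpina1c, -55 in Serpina1d and -117 in Serpina1e. None of these bases was tested for a part in expression.

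In the droplet library, 9451 cells passed the filters of more than 1000 detected genes and under 10% mitochondrial UMIs (unique molecular identifiers, each counting 1 captured RNA), with a median of 5984 UMIs. Cells were grouped by UMIs per 10000 of the same cell: Tph1 at or above 10, and Cck, Gip, Ghrl or Sst at or above 500. This gave 2454 Tph1 cells, 779 Cck cells, 133 Gip cells, 134 Ghrl cells and 35 Sst cells that met only that condition. Many Tph1 cells were shallow: of the 9451 cells, 7129 were over the limit of 3892 UMIs that Cell Ranger 2 would set, and these left 775 Tph1, 701 Cck, 120 Gip, 124 Ghrl and 28 Sst cells. A further 238 cells met the Tph1 and Cck conditions, 165 met the Cck and Ghrl conditions, and 121 met other combinations. Of the 5392 remaining cells, 4022 had Muc2, the main goblet cell mucin, at or above 50 per 10000. The summed level of 9 enterochromaffin markers was 639 UMIs per 10000 in Tph1 cells and 22.6 in the remaining cells. That of 3 ghrelin cell markers was 3552 in Ghrl cells and 9.17 in the remaining cells. These sums include Tph1 and Ghrl, which set the groups, and Ghrl alone was 3546 in Ghrl cells. The other ghrelin cell markers, Acsl1 and Mboat4, were 5.35 and 0.958 there, against 0.125 and 0.00542 in the remaining cells. Chgb and Reg4, enterochromaffin markers not used for grouping, were 306 and 274 in Tph1 cells, against 10.3 and 9.52. The 8 goblet markers summed to 1187 in Tph1 cells, 944 in Ghrl cells and 3010 in the remaining cells. As there is 1 library, intervals below are exact 95% Poisson intervals on levels and exact binomial (Clopper-Pearson) intervals on shares, which cover counting error only. RNA free in the droplets was read from barcodes with 1 to 100 UMIs.

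The members separated into those highest in ghrelin cells and those highest in serotonin cells. Serpina1a, Serpina1b and Serpina1d had their highest level in Ghrl cells, whereas Serpina1c, Serpina1e and Afp had theirs in Tph1 cells. For Serpina1c the lead of Tph1 over Ghrl cells was gone among barcodes over the Cell Ranger 2 limit. The 3 copies at the low-coordinate end of the cluster were the Ghrl-highest ones and the 2 at the other end were the Tph1-highest ones. With 5 neighbouring copies this order is a description only. Among Tph1 cells the 5 copies summed to 12.5 UMIs per 10000 (12.3 to 12.7), among Ghrl cells to 15.8 (15.0 to 16.6), and in Cck cells to 2.97 (2.82 to 3.12). The sum was 0.730 (0.567 to 0.925) in Gip cells and 0.458 (0.439 to 0.478) in the remaining cells, and the Gip cells stood lowest among the 5 single-hormone groups.

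**Figure D1:**
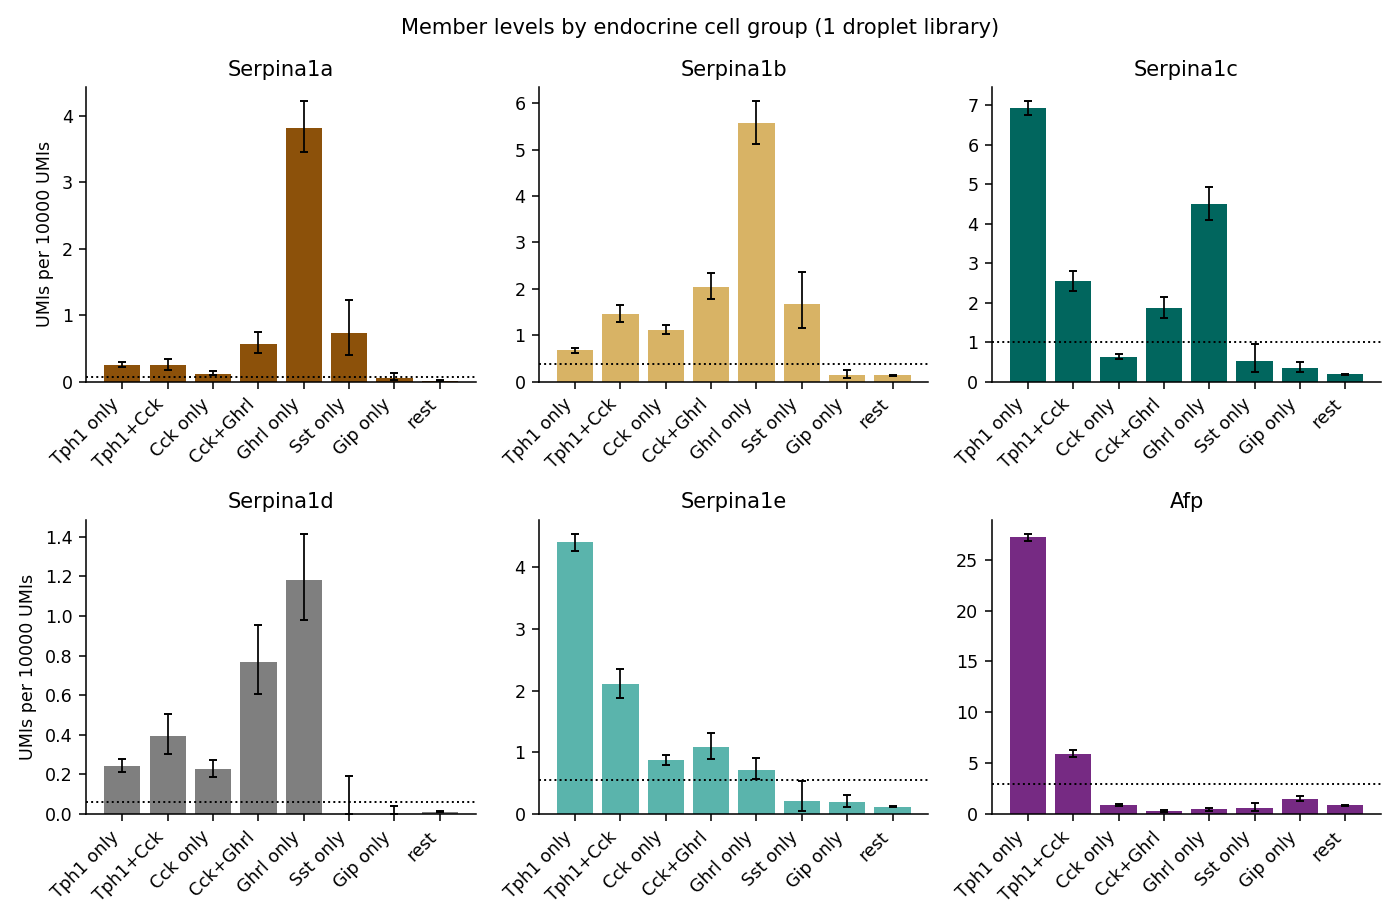
Level of each gene (UMIs per 10000, linear axis) in each cell group of the droplet library, with exact 95% Poisson intervals as error bars and the level in free RNA as a dotted line. Afp reaches 27.2 in Tph1 cells and is under its dotted line in every other group with a single hormone, while Serpina1a peaks in Ghrl cells at 3.82.

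Serpina1a was highest in Ghrl cells, at 3.82 UMIs per 10000 (3.45 to 4.22, 391 UMIs). It stood at 0.734 (0.401 to 1.23) in Sst cells, at 0.254 (0.223 to 0.288) in Tph1 cells and at 0.119 (0.0914 to 0.153) in Cck cells. The Gip cells, at 0.0537, were below the free RNA level of 0.0648. The Ghrl cells were thus the high group, and their interval overlapped no other group's. Of all Serpina1a UMIs in the kept cells, 43.4% came from the 134 Ghrl cells. When cells were thinned to 2000 UMIs each, 38.1% of Ghrl cells and 0.249% of the Muc2-high remaining cells had at least 1 Serpina1a UMI (78.4% and 0.671% unthinned).

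Serpina1b was the most widely spread copy. Its level was 5.56 (5.12 to 6.04) in Ghrl cells, 2.04 (1.77 to 2.33) in cells with both Cck and Ghrl, 1.68 (1.15 to 2.37) in Sst cells and 1.1 (1.03 to 1.21) in Cck cells. Tph1 cells followed at 0.675 (0.624 to 0.730), and Gip cells at 0.140 were close to the remaining cells at 0.132 and below free RNA at 0.374. The intervals of the Sst cells and of the Cck and Ghrl cells overlapped, so their order is not resolved. Serpina1b UMIs were shared almost evenly between the Tph1 cells (21.0%), the remaining cells (20.2%), the Cck cells (19.3%) and the Ghrl cells (18.9%). Within the Cck cells it was 1.39 (1.27 to 1.52) in the 495 cells without Gcg or Pyy, the genes of glucagon-like peptides and peptide YY, and 0.590 (0.481 to 0.715) in the 284 cells with either at 20 per 10000 or more.

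Serpina1d had the fewest UMIs of the 5 copies over all kept cells (696, against 901 for Serpina1a), although it was not the lowest copy in Ghrl or Cck cells. Its level was 1.18 (0.982 to 1.41) in Ghrl cells, 0.767 (0.607 to 0.956) in cells with both Cck and Ghrl, 0.245 in Tph1 cells and 0.229 in Cck cells. The last pair of levels cannot be separated by counting error. No Serpina1d UMI was found in 133 Gip cells, or in 35 Sst cells. Taking 3 counts as the limit that a count of 0 allows, in place of an exact interval, the share of cells with a UMI could be up to 2.26% and 8.57%. In Cck cells it was 0.301 without and 0.0859 with Gcg or Pyy, the same order as for Serpina1b.

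Serpina1c was the most abundant copy in Tph1 cells, at 6.93 UMIs per 10000 (6.76 to 7.10, 6498 UMIs), and was also high in Ghrl cells at 4.51 (4.11 to 4.94). Cells with both Tph1 and Cck, at 2.54 (2.29 to 2.80), stood between the Tph1 cells and the Cck cells. In Cck cells at 0.627, Sst cells at 0.524 and Gip cells at 0.343 it was below the free RNA level of 1.00. Thinned to 2000 UMIs, Serpina1c was found in 51.6% of Tph1 cells and 56.0% of Ghrl cells against 3.21% of Muc2-high remaining cells (60.6%, 90.3% and 8.90% unthinned). With every cell thinned to 2000 UMIs and grouped anew, the Serpina1c levels were 7.59 in Tph1 and 4.96 in Ghrl cells. Random thinning leaves the expected level of a cell unchanged, so it cannot show whether depth bears on the gap. With only barcodes above the Cell Ranger 2 limit, which leaves 775 Tph1 cells, the Serpina1c levels were 4.63 and 4.54, and the gap was gone.

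Serpina1e shared the Tph1 peak of Serpina1c but not its high level in Ghrl cells. It stood at 4.41 (4.27 to 4.54, 4132 UMIs) in Tph1 cells, 2.11 in cells with both Tph1 and Cck, 0.871 in Cck cells and 0.724 (0.568 to 0.908) in Ghrl cells. Sst cells at 0.210 and Gip cells at 0.193 were below the free RNA level of 0.553. The Tph1 cells held 71.0% of Serpina1e UMIs and 72.7% of Serpina1c UMIs.

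Afp was the most abundant of the 6 genes and the one most concentrated in Tph1 cells, at 27.2 UMIs per 10000 (26.9 to 27.5, 25488 UMIs). Cells with both Tph1 and Cck had 5.94 (5.57 to 6.33), and the Gip, Cck, Sst and Ghrl cells had 1.5, 0.892, 0.629 and 0.479, all below free RNA at 2.96. Tph1 cells held 81.0% of all Afp UMIs, and 47.0% of them had an Afp UMI at 2000 UMIs against 6.89% of Muc2-high remaining cells (53.1% and 19.2% unthinned). The level differed widely from cell to cell. In the median Tph1 cell it was 2.28 per 10000, at the 90th percentile 88.6, and in the highest cell 547. The top 10% of Tph1 cells held 69.0% of Afp UMIs, compared with 40.7% for Serpina1c and 43.6% for Serpina1e.

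The mix of copies differed between hormone groups even where the summed level was similar. In Tph1 cells Serpina1c made up 55.4% (54.5 to 56.3) of the 11731 Serpina1 UMIs and Serpina1e 35.2% (34.4 to 36.1), while Serpina1a, Serpina1b and Serpina1d together made up the small remainder at 2.03%, 5.40% and 1.96%. In Ghrl cells Serpina1b led with 35.2% (32.9 to 37.6) of 1616 UMIs, followed by Serpina1c at 28.5% and Serpina1a at 24.2% (22.1 to 26.4). Serpina1e was only 4.58% (3.61 to 5.71) there. In Cck cells Serpina1b at 37.7% (35.3 to 40.2) and Serpina1e at 29.4% led the 1542 UMIs, and Serpina1a was 4.02%. The Sst and Gip cells, with 60 and 68 UMIs, are too few to rank beyond Serpina1b at 53.3% in the former and Serpina1c at 47.1% in the latter. In Gip cells every copy was below its free RNA level, and Serpina1c made up 48.8% of the 5 copies in free RNA. The part of free RNA in the Gip mix was not tested. Ghrl cells more often held several copies at once: thinned to 2000 UMIs, 23.1% of them and 11.5% of Tph1 cells had 3 or more of the 5 copies (79.1% and 18.7% unthinned, at median depths of 7283 and 3208 UMIs).

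**Figure D2:**
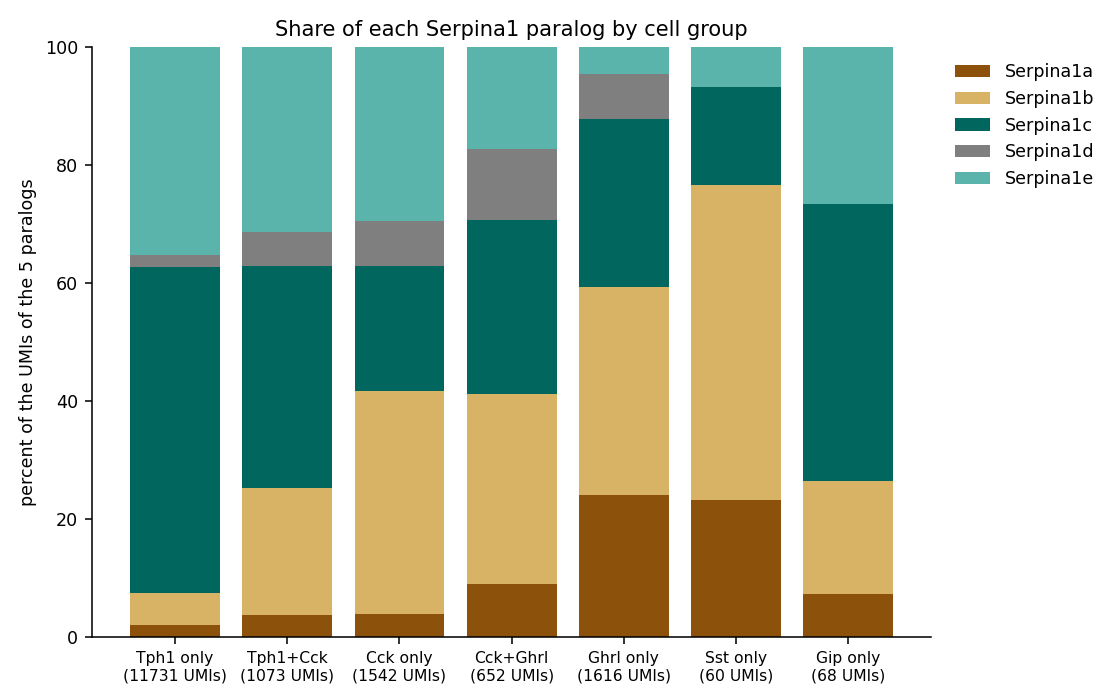
Share of each Serpina1 copy among the UMIs of all 5 (percent, stacked bars) in each cell group. Serpina1c and Serpina1e fill most of the Tph1 bar, at 55.4% and 35.2%, and Serpina1a reaches 24.2% in the Ghrl bar but 2.03% in the Tph1 bar.

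Within the Tph1 cells, the levels of Afp, Serpina1c and Serpina1e ran in different orders over the subsets. The cells were split into 355 with Tac1, the substance P gene, at 10 per 10000 or more, 345 of the rest with Sct, the secretin gene, at 1000 or more, and 1754 with neither. Afp was 57.4 (56.2 to 58.7) in the Tac1-high cells, 26.1 (25.7 to 26.5) in the cells with neither and 1.56 (1.35 to 1.79) in the Sct-high cells. The Sct-high level lay below the free RNA level of 2.96 but above that of Cck cells, at 0.892 (0.813 to 0.977). How much of a cell's UMIs came from free RNA was not measured. Whether Sct-high cells express Afp is therefore not settled. Serpina1c ran differently, at 8.51 (8.29 to 8.73) in the cells with neither, 3.68 (3.36 to 4.02) in the Sct-high cells and 2.33 (2.08 to 2.61) in the Tac1-high cells. Serpina1e was 5.39 (5.00 to 5.80) in the Sct-high cells, 4.83 (4.66 to 5.00) in the cells with neither and 1.38 (1.19 to 1.59) in the Tac1-high cells. The subset with the least Afp thus had the highest Serpina1e level, though its interval met that of the cells with neither. The cells with neither, the largest subset, held Afp at 26.1, Serpina1c at 8.51 and Serpina1e at 4.83. Serpina1e was 55.0% of the Serpina1 UMIs in Sct-high cells and 34.0% in Tac1-high cells. Serpina1b was low in all 3 subsets, between 0.155 and 0.816.

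**Figure D3:**
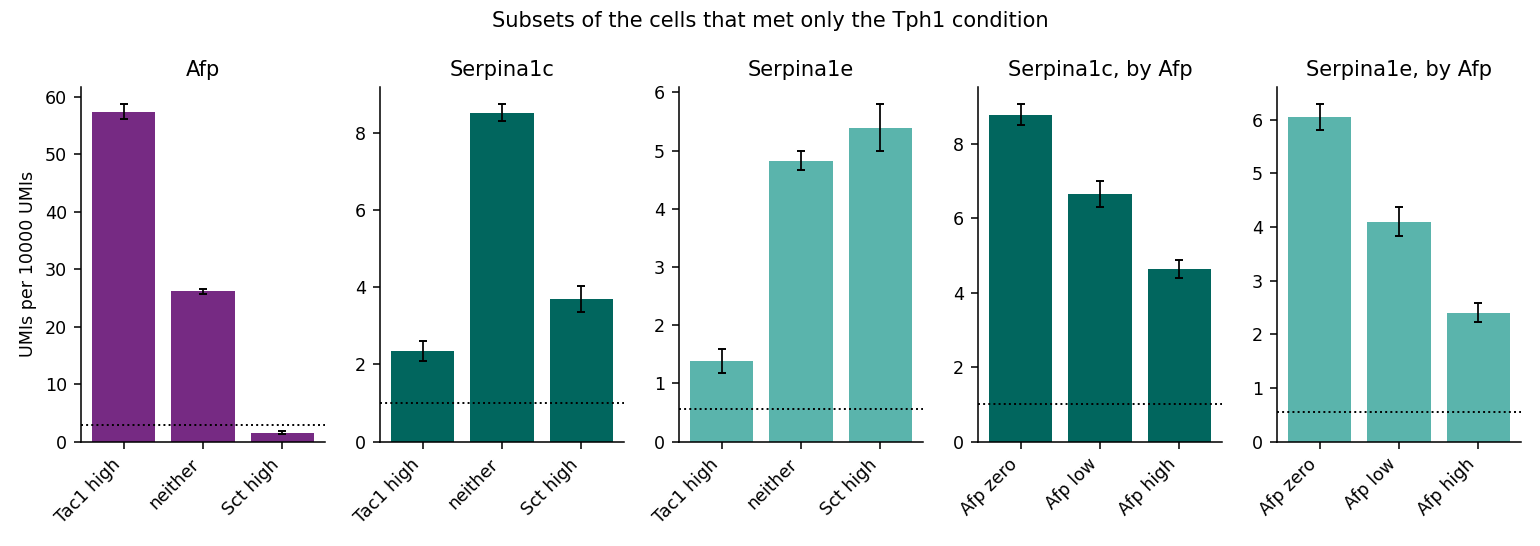
Level of Afp, Serpina1c and Serpina1e (UMIs per 10000, linear axis) in Tph1 cells split by Tac1 and Sct. The 2 panels on the right give Serpina1c and Serpina1e in Tph1 cells split by Afp (no UMI, below 10 per 10000, and at or above 10). Bars are exact 95% Poisson intervals and the dotted line is the free RNA level. Afp falls from 57.4 in Tac1-high to 1.56 in Sct-high cells while Serpina1e is higher in Sct-high cells (5.39) than in Tac1-high cells (1.38).

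Opposite steps of Afp and the Serpina1 copies appeared when Tph1 cells were sorted by Afp itself, a split that fixes Afp but not the Serpina1 copies. The summed Serpina1 level was 16.5 UMIs per 10000 in the 1150 cells with no Afp UMI, 11.9 in the 505 cells below 10 and 7.50 in the 799 cells at or above 10. Median depth in these classes was 3110, 3432 and 3281 UMIs. Serpina1c stepped down from 8.78 to 6.64 and 4.63, and Serpina1e from 6.05 to 4.10 and 2.40. Reg4, a secreted lectin of enterochromaffin cells, stepped up from 56.5 to 151 and 657. These are cells of 1 library and no test was made.

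Genes whose log2 level over the 9 cell groups most resembled each member were ranked by Pearson r, with all groups taken from the same library. Afp was closest to Tpbg (r = 0.984), Cartpt (0.977), which encodes the CART neuropeptide precursor, and Plk5 (0.974). Cartpt stood at 14.9 UMIs per 10000 in Tph1 cells and 0.264 in Ghrl cells. Serpina1c was closest to Tnnc1 (0.989), Bmi1 (0.971) and Smyd3 (0.958), and Serpina1e to Romo1 (0.983), Fam222b (0.982) and Dctn3 (0.977). Serpina1a was closest to Vma21 (0.989), Card19 (0.967) and Il11ra1 (0.960), Serpina1b to Dock9 (0.985), Gm43194 (0.971) and Oaz2 (0.963), and Serpina1d to Morf4l2 (0.927), Rsph9 (0.924) and Neurl1a (0.921). The measure ignores the size of the change, and several of these genes varied little, such as Romo1 with 1.16 to 2.58 UMIs per 10000. Between members, r was 0.901 for Serpina1a with Serpina1b, 0.874 for Serpina1c with Serpina1e and -0.27 for Serpina1a with Afp.

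In the sorted libraries all 6 genes were present in every CCK+ library and were far lower in CCK- libraries. Values are normalized counts, the reads of each gene after the study's scaling of library size. The 12 libraries totalled 7061155 to 11371114 normalized counts with 16656 to 18855 genes above 0. All 12 EEC markers of a list were higher in CCK+ than in CCK- libraries, with summed levels of 66485 to 240636 against 1350 to 2742. The 10 enterocyte markers nevertheless summed to 183316 to 460653 normalized counts in CCK+ libraries, against 529462 to 732540 in CCK- libraries. In such bulk samples, fewer cells of a type and less RNA per cell cannot be told apart.

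Afp was the highest member in CCK+ libraries, at 4410, 1422 and 4610 normalized counts in fasted libraries A, B and F and 8708, 9168 and 9860 in refed libraries C, D and E. The 6 CCK- libraries held 42.2 to 57.9. Serpina1e followed, with 1562, 578 and 543 in fasted and 1282, 2054 and 1578 in refed CCK+ libraries against 9.23 to 29.7 in CCK- libraries. Library B was low for Afp and library A was high for the Serpina1 copies among the fasted CCK+ libraries. Serpina1c had 1144, 279 and 375 in fasted and 818, 1487 and 1425 in refed CCK+ libraries, with 8.88 to 22.2 in CCK- libraries. Serpina1b had 619, 306 and 187 in fasted and 314, 518 and 339 in refed CCK+ libraries, with 0.878 to 6.72 in CCK- libraries. No CCK+ library overlapped a CCK- library for any of these genes, but this contrast chose them. The share of all genes without such overlap was not counted, so nothing is read from it.

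Serpina1a and Serpina1d were the least abundant copies. Serpina1a had 283, 103 and 38.4 normalized counts in fasted and 117, 290 and 225 in refed CCK+ libraries, and it was listed at 0 in 5 of the 6 CCK- libraries, with 2.54 in the other. Serpina1d had 133, 88.6 and 42.1 in fasted and 107, 143 and 68.9 in refed CCK+ libraries, and 0 to 5.96 in CCK- libraries, of which 3 were at 0. On the log2(normalized count + 1) scale, CCK+ exceeded CCK- by 6.76 for Afp, 6.52 for Serpina1b, 5.87 for Serpina1e, 5.82 for Serpina1c and 5.34 for Serpina1d. No value is given for Serpina1a, since nearly all its CCK- libraries were at 0. This contrast chose the genes, and 33.7% of all genes passed the test in it, 19.6% higher and 14.1% lower, so nothing is read from these sizes.

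**Figure D4:**
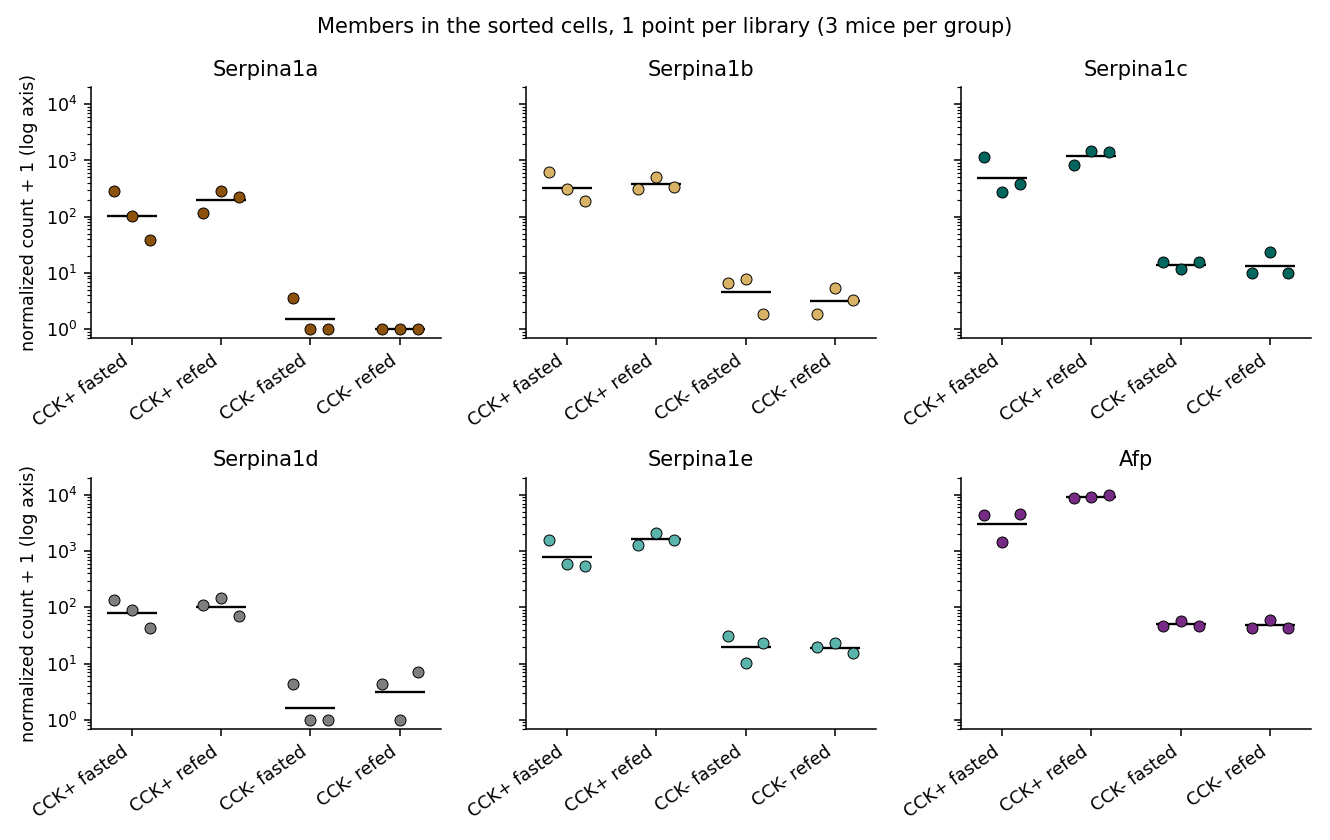
Normalized count + 1 (log axis) of the 6 genes in the 12 sorted libraries, 3 per group, with points for libraries and a line at the mean of the log values. The CCK+ points lie above the CCK- points for all 6 genes, which this contrast chose. Afp in refed CCK+ libraries lies at 8708 to 9860, above the fasted CCK+ libraries at 1422 to 4610.

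Per kilobase of the longest coding transcript, the order in refed CCK+ libraries was Afp (4221 to 4780 normalized counts per kb), Serpina1e (814 to 1304), Serpina1c (601 to 1092), Serpina1b (178 to 294), Serpina1a (74.0 to 184) and Serpina1d (49.4 to 103). Afp stood clear of the rest, whereas the ranges of Serpina1e and Serpina1c overlapped, as did those of Serpina1b and Serpina1a and those of Serpina1a and Serpina1d. Of the 5 copies per kilobase, Serpina1e made up a mean of 43.9% and Serpina1c 38.1% in refed CCK+ libraries, and Serpina1b made up 9.34%. In fasted CCK+ libraries the means were 42.1%, 31.0% and 15.9%.

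Feeding was tested with limma over all genes, with Benjamini-Hochberg adjusted p-values. Among all genes, 2.55% passed at an adjusted p under 0.05 between refed and fasted CCK+ cells, and 1.31% were both past the threshold and higher in refed mice. Of the 6 members 1 passed: Afp was higher after refeeding by 1.59 on the log2 scale (SE 0.34, a fold of 3.01, limma adjusted p = 0.0228, n = 3 and 3), with the 3 refed libraries all above the 3 fasted ones. Without CCK+ fasted library B, the lowest, the difference was 1.03 with a limma adjusted p of 0.0287. The limma call was lost without CCK+ refed library C (adjusted p = 0.0848), D (0.150) or E (0.135), and without CCK- library A (0.0560), B (0.0536), C (0.0550) or D (0.0566). It was also lost without the mean-variance trend (limma adjusted p = 0.112) and with only the CCK+ libraries in the fit (0.257).

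None of the 5 Serpina1 copies passed between refed and fasted CCK+ cells. Serpina1c and Serpina1e had an unadjusted limma p under 0.05, as did 3736 of the 22042 genes tested. Serpina1c differed by 1.28 on the log2 scale (SE 0.46, limma adjusted p = 0.175) and Serpina1e by 1.03 (SE 0.42, limma adjusted p = 0.235), both with fasted library A inside the refed range. Without CCK+ fasted library A the limma test called Serpina1c, at 1.89 with an adjusted p of 0.0390. Serpina1a, Serpina1d and Serpina1b differed by 0.91 (SE 0.72), 0.36 (SE 0.78) and 0.21 (SE 0.58), with limma adjusted p-values of 0.567, 0.869 and 0.904.

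In CCK- cells 1.23% of all genes passed the limma test and 0 of the 6 members did. An unadjusted limma p under 0.05 was found for 0 of the 6 members and for 2635 of the 22042 genes tested. Afp differed there by -0.08 on the log2 scale (SE 0.34, limma adjusted p = 1). The difference between the effects in CCK+ and CCK- cells was 1.66 for Afp (SE 0.47, limma adjusted p = 0.637) and did not pass, so the effect of feeding on Afp is not shown to differ between the sorted populations. Over all genes 0.00454% passed that test, which is 1 gene.

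**Figure D5:**
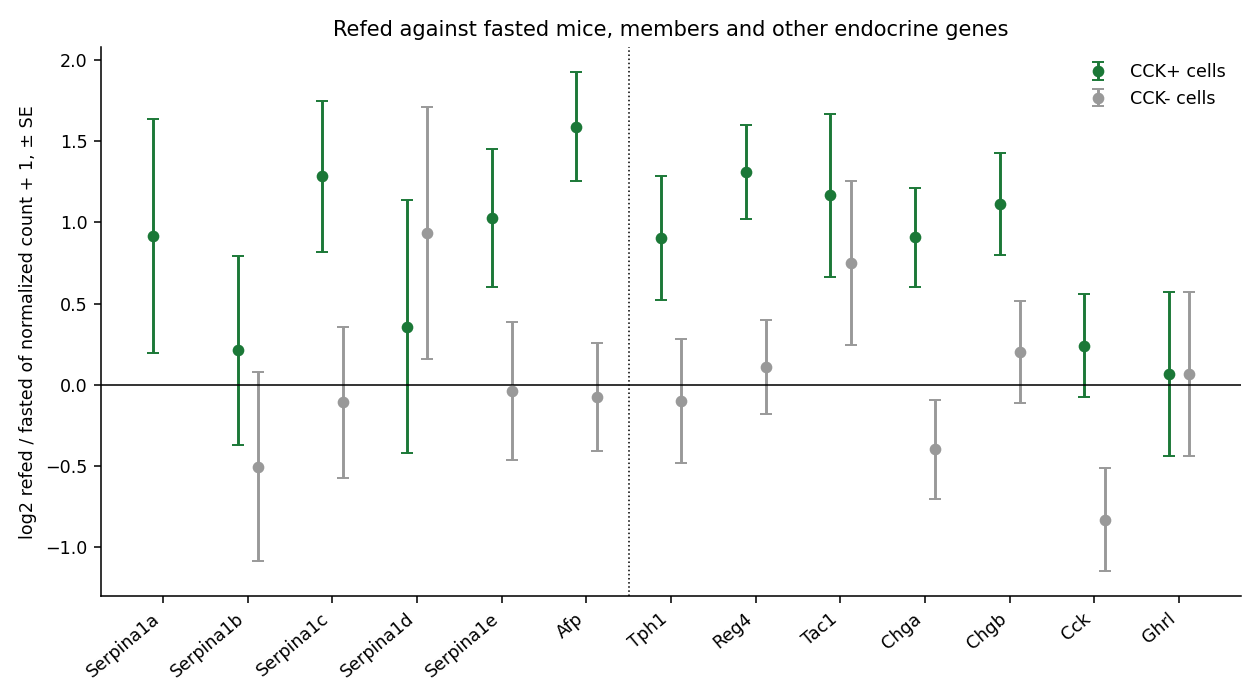
Difference between refed and fasted mice (log2 of normalized count + 1, points with SE bars) in CCK+ and CCK- cells for the members, left of the dotted line, and for 7 endocrine genes, right of it. Afp in CCK+ cells is at 1.59, above 0 by more than its SE of 0.34, and Reg4 is at 1.31. Serpina1a in CCK- cells is not drawn because its refed libraries are at 0.

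Some endocrine markers moved with Afp in the CCK+ libraries and others did not. The sum of the 12 EEC markers was 66485 to 149720 normalized counts in fasted and 177492 to 240636 in refed CCK+ libraries, and that of the 9 enterochromaffin markers was 67927 to 158814 and 190168 to 264455. Most of both sums was Chgb, the granule protein chromogranin B, with means of 88929 in fasted and 183879 in refed libraries. None of the 12 EEC markers passed the limma test, beside 2.55% of all genes, with Chgb at 1.11 (SE 0.31, limma adjusted p = 0.0814). Their median log2 difference was 0.70. The endocrine regulators Rfx6, Isl1 and Pax6 had means of 554, 267 and 581 in fasted and 477, 179 and 570 in refed libraries. The regulators Neurod1, Insm1 and Fev went the other way, with means of 2369, 204 and 197 in fasted and 3557, 326 and 383 in refed libraries. Of the 9 enterochromaffin markers 1 passed, Reg4, which rose by 1.31 (SE 0.29, limma adjusted p = 0.0285). With 2.55% of all genes passing, nothing is read from counts of 0 or 1 in lists this short. Tph1 was at 0.90 (limma adjusted p = 0.248) and Cck at 0.24 (0.762). The 10 enterocyte markers summed to 277114 to 460653 in fasted and 183316 to 307381 in refed CCK+ libraries, ranges that overlap, and 1 of them passed, the lactase gene Lct at -0.96 (limma adjusted p = 0.046). The 7 crypt markers summed to 1596 to 3116 in fasted and 3163 to 4139 in refed CCK+ libraries, and to 1060 to 1511 and 2119 to 2754 in CCK- libraries, with no overlap in either. Per 100 Chgb counts, Afp was 3.58, 2.62 and 5.17 in the fasted and 5.71, 4.34 and 5.24 in the refed libraries. These ranges overlapped, as did those per 100 Reg4 counts (28.9, 23.7 and 36.6 against 41.3, 33.3 and 32.6) and per 100 Tph1 counts (28.5, 28.5 and 47.2 against 74.5, 46.4 and 46.2). The part of the endocrine, enterocyte and crypt content of each library in the Afp difference was not tested.

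Because both families are best known from liver, hepatocyte markers were examined beside them. In the droplet cells the fibrinogen genes Fga and Fgb and the liver genes Serpina3k and Mup3 had 0 UMIs in the 9451 kept cells and Ahsg had 1. Other hepatocyte markers of the list were found: Apoa2 had 304 UMIs, Alb 160, Hamp 125 and Cyp2e1 77. Hamp was highest in Ghrl cells at 0.332 UMIs per 10000 and Apoa2 in Gip cells at 0.193. Ttr, a thyroid hormone carrier that islet and gut endocrine cells also make, reached 31.4 UMIs per 10000 in Ghrl cells. Of 10 hepatocyte markers, 5 were present in the sorted-cell table, with sums of 148 to 296 in fasted CCK+, 430 to 541 in refed CCK+ and 15.2 to 41.4 in CCK- libraries. In CCK+ libraries most of the sum was Ttr, with 134 to 251 in fasted and 336 to 425 in refed mice. Pancreatic acinar markers summed to 5360 in 1 fasted CCK+ library and to at most 21.9 in the other 11.

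Of the genes nearest to Afp by family, Alb was found at a low level in Tph1 cells, the group in which Afp was highest. Alb, the main plasma protein, was higher in CCK+ than CCK- cells by 4.24 on the log2 scale (SE 0.51, limma adjusted p = 1.8e-05), at means of 18.5 in fasted and 55.3 in refed CCK+ libraries. In droplet cells Alb had 160 UMIs in all and was highest in Tph1 cells at 0.125 per 10000, against 27.2 for Afp. Afm, the afamin gene, did not pass at -0.59 (SE 0.29, limma adjusted p = 0.137), and Gc had no row in the table used. Among single-hormone groups, Afm was highest in Sst cells at 0.105 per 10000 and Gc in Ghrl cells at 0.0587. They had only 130 and 12 UMIs in all kept cells.

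Of 24 other serpins, 20 were tested, of which 6 were higher and 2 lower in CCK+ cells, with a median log2 difference of 0.26. Over all genes 19.6% were higher and 14.1% lower in this contrast, with a median of 0.09. Serpinf2, the plasmin inhibitor alpha-2-antiplasmin, was higher by 5.85 (SE 0.43, limma adjusted p = 1.62e-07), and Serpini1, the neuronal inhibitor neuroserpin, by 3.74 (SE 0.32, limma adjusted p = 6.64e-07). Both had their highest single-hormone level in Tph1 cells, at 1.46 and 0.609 UMIs per 10000. Serpinb6b was higher by 2.76 and Serpinb6a lower at -0.77. Serpina1f, the sixth Serpina1 gene and not a member, had 0 UMIs in droplet cells and at most 2.43 normalized counts in any sorted library. Serpini1 was also the 1 of the 20 serpins that passed with refeeding in CCK+ cells, beside 2.55% of all genes. It was higher by 1.89 (SE 0.45, limma adjusted p = 0.0412).

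Of 18 serine proteases that such inhibitors can meet, 13 were tested, and 5 were higher and 1 lower in CCK+ cells, with a median of 1.09, beside 19.6%, 14.1% and 0.09 over all genes. The pancreatic genes Cela2a, Cela3b, Prss2, Ctrb1 and Ctrl, which did not pass, were high in fasted CCK+ cells, where 1 library had acinar markers at 5360, and Ctrb1 had a mean of 1152 there against at most 1.24 in the other groups. Tmprss15, the enterocyte protease enteropeptidase, was lower at -1.39 (limma adjusted p = 9.81e-05). The mast cell proteases Mcpt2 and Mcpt1 were higher by 4.36 and 4.40 (limma adjusted p = 0.000137 and 0.00019), but had 1 and 0 UMIs in the droplet cells. Immune markers moved with them, with 6 of 7 higher in CCK+ libraries, and the part of immune cells in these values was not tested. Cela1, an elastase, was higher by 1.70 (limma adjusted p = 0.00348).

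Of 22 liver-type secreted proteins, 16 were tested, and 7 were higher and 1 lower in CCK+ cells, with a median of 0.06, beside 19.6% and 14.1% over all genes. Ambp, the precursor of alpha-1-microglobulin and bikunin, was higher by 6.18 (SE 0.28, limma adjusted p = 1.38e-09), and Rbp4, the retinol carrier, by 7.54 (SE 0.45, limma adjusted p = 2.16e-08). Ttr and Trf, the iron carrier transferrin, were higher by 5.64 and 4.03. These genes did not share a cell group in the droplet library. Ambp was highest in Tph1 cells at 14.9 UMIs per 10000, Rbp4 in Gip cells at 35.5 with 0.314 in Tph1 cells, and Ttr in Ghrl cells at 31.4.

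Of 22 transcription factors known from liver, 22 were tested, and 6 were higher and 5 lower in CCK+ cells, with a median of -0.15, beside 19.6% and 14.1% over all genes. Onecut3 was higher by 5.12 (SE 0.26, limma adjusted p = 4.75e-09), Prox1 by 4.50 (SE 0.31, limma adjusted p = 8.96e-08), Foxa1 by 3.18 (SE 0.24, limma adjusted p = 1.74e-07) and Foxa3 by 2.00 (SE 0.22, limma adjusted p = 8.4e-06). These factors did not share a cell group in the droplet library. Among single-hormone groups, Foxa1 was highest in Tph1 cells, at 2.08 UMIs per 10000, Onecut3 in Cck cells at 1.58 and Prox1 in Sst cells at 1.1. Foxa3 was highest of these groups in Tph1 cells at 1.69, but the remaining cells were higher at 2.35. With refeeding, Hnf4g was lower at -1.47 in CCK+ cells (limma adjusted p = 0.00375) and at -1.18 in CCK- cells (limma adjusted p = 0.0135), and Stat3 was lower at -0.67 in CCK+ cells (limma adjusted p = 0.034). Over all genes, limma called 2.55% between refed and fasted CCK+ cells. Among the other lists it called 0 of 2 albumin family genes, 0 of 13 proteases and 0 of 16 liver-type secreted proteins. Their median log2 differences were 1.03, -0.73 and -0.19, beside 0.01 over all genes. The 20 serpins and 22 factors had medians of 0.08 and 0.02.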

How the data were processed

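The members and the gene lists were chosen with earlier results of these data known. For the droplet library the authors deposited raw UMI counts per gene and barcode, made with Cell Ranger 2.0.1 on mm10. Cell groups used the limits given in the report; no doublet caller was run, doublets were not removed, and cells meeting several conditions were set apart. For the sorted cells the authors deposited normalized counts, used here as a signal: reads were trimmed (Trim Galore 0.6.7), quantified with Salmon 1.6.0 on a GRCm39 transcriptome, imported with tximeta and scaled with DESeq2. Whole reads could not be recovered, since 48.5% to 57.7% of values under 30 were whole multiples of a library's commonest step (within 0.02 of a whole number), so no count test was run. Tests over the 22042 genes used limma 3.58.1 (R 4.3.3) on a log2 scale with a pseudocount of 1, a mean-variance trend, 4 group means, 8 residual degrees of freedom and Benjamini-Hochberg adjustment over all genes. The procedure was tested on simulated data. Sample titles say CCK+ for all sorted samples, so groups follow the cell type labels.

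Named genes were all members, the 3 genes most like each member (at least 200 UMIs), and from each list up to 4 genes with the smallest adjusted p. Hnf4g, Stat3, Cela1, Serpina1f and the endocrine genes beside Afp were added after their values were seen. Each sorted library came from 1 mouse, per the study's methods. Alternatives were the pseudocount, filters, the trend, the samples in the fit, a block on the library letter, leaving out each library, and other limits on cells. Leaving out both libraries lettered B was added after the data were seen.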

Additional observations from a re-analysis of the deposited data

How the results depend on the processing

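In the droplet library each of the 6 genes had its highest level in the same single-hormone group under all 8 alternatives for filters, limits and thinning. For Serpina1c this order was not resolved with only barcodes over the Cell Ranger 2 limit. There it was 4.63 (4.43 to 4.83) in Tph1 cells and 4.54 (4.13 to 4.98) in Ghrl cells. The levels moved, for Afp in Tph1 cells between 23.5 and 31.0 UMIs per 10000, for Serpina1c in Tph1 cells between 4.63 and 8.10, and for Serpina1a in Ghrl cells between 1.99 and 4.01. A pseudocount of 10 lowered the CCK+ against CCK- log2 difference to 4.78 for Serpina1b and 3.08 for Serpina1d, and the count of genes passing between CCK+ and CCK- cells ranged from 6520 to 7881 over all alternatives. The count of genes passing between refed and fasted CCK+ cells was 561, and became 119 without the trend, 0 with only the 2 groups compared (3736 genes had an unadjusted limma p under 0.05 in the full fit), 127 without both libraries lettered B, and 103 to 876 leaving out each library (876 without CCK+ fasted A, 193 without B, 351 without F, 103 without CCK+ refed D, 183 without E, 333 without CCK- refed D). In CCK- cells the count was 272, and became 66 without the trend, 63 with only the 2 groups, 85 without both libraries lettered B, and 79 to 268 leaving out each library. For the difference between these effects the count was 1, and became 0 with a pseudocount of 10, 2 without the trend, 0 without both libraries lettered B, and 1 to 6 leaving out each library. The causes were not tested. The letters are not stated to pair the samples. Deviations from the group means correlated at 0.0463 to 0.065 between the 6 CCK+ and CCK- pairs of 1 letter and at -0.05 to -0.01 between 12 pairs of different letters, a hint from the data and not the design. Fitting the letter as a replicate block (correlation 0.0962) gave 576 genes between refed and fasted CCK+ cells and an adjusted limma p of 0.0245 for Afp, and changed no call of a member. Differences that did not pass changed sign in some fits. Between refed and fasted CCK+ cells, leaving out each library gave -0.19 to 0.67 for Serpina1b (negative without CCK+ fasted F or refed D) and -0.0905 to 0.73 for Serpina1d (negative without CCK+ fasted F). In CCK- cells it gave -0.50 to 0.29 for Serpina1e (positive without CCK- fasted A, fasted F or refed E), -0.52 to 0.10 for Serpina1c (positive without CCK- refed C or E) and -0.22 to 0.0233 for Afp (positive without CCK- fasted B, and 0.0233 without both libraries lettered B). The difference of effects for Serpina1d was 0.0906 with a pseudocount of 10, and leaving out each library gave -1.39 to 0.00581 (positive without CCK- refed E). The precision rests on 3 mice a group, and the droplet values on 1 library.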
